A study of Homo sapiens with 4 samples.

Results

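The nucleolar ribosome biogenesis factors described here are 39 genes whose proteins make, modify, cut and package ribosomal RNA in the nucleolus. They were taken by gene symbol, with expected counts and FPKM (fragments scaled to gene length and library size) summed over rows that share a symbol, and they are 39 of 22187 genes in the deposited tables. All 39 were measured in every library, and all 39 passed the filter on low counts. Their roles fall into box C/D snoRNP proteins (3 genes), box H/ACA snoRNP proteins (4), abundant nucleolar proteins with a snoRNP chaperone (4), RNA polymerase I subunits (3), 1 nucleolar helicase, small subunit assembly factors (11) and large subunit assembly factors (13).

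RNA was sequenced from the established human myeloma lines KMS18 and KMS28BM, which are labelled as bone marrow plasma cells and both carry t(4;14), the translocation that places NSD2 and FGFR3 next to the immunoglobulin heavy chain locus. In each line PKCα, a protein kinase whose gene is PRKCA, was stably knocked down in 1 library, and the other library carried a luciferase construct as its control. The labels name no other treatment, time or drug for the 4 libraries and do not give the sequence of the knockdown construct. The question put by this design is how myeloma transcripts differ when PKCα is reduced. The lines are the only replication, so a p-value over both lines measures how alike they moved and not the spread between cultures of 1 line. A lower value in bulk RNA cannot separate fewer cells of a kind from less RNA per cell.

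Ribosomes are assembled from ribosomal RNA that RNA polymerase I transcribes in the nucleolus. Small nucleolar RNPs guide chemical changes on the precursor, box C/D particles for ribose methylation and box H/ACA particles for pseudouridine, while helicases, GTPases and scaffold proteins fold and cut it into the small and large subunits. Plasma cells and myeloma cells secrete or make large amounts of protein and depend on a high output of ribosomes, and MYC is a known activator of many genes of this pathway.

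The 4 libraries held 37957404 expected counts in the KMS18 knockdown and 37940949 in the KMS18 control, and 39100504 in the KMS28BM knockdown and 39507281 in the KMS28BM control. PRKCA itself was at 1.47 FPKM in the knockdown and 7.46 FPKM in the control of KMS18, and at 2.43 FPKM in the knockdown and 10.9 FPKM in the control of KMS28BM (log2 difference -2.34, SE 0.11, adjusted p = 0.00153 by edgeR). All 9 plasma cell markers reached 1 FPKM, 6 of them were called lower and CD38 was called higher by edgeR. Of the T cell markers only CD3E reached 1 FPKM, at 20.9 FPKM in the knockdown and 7.32 FPKM in the control of KMS18 and at 3.27 FPKM in the knockdown and 1.0 FPKM in the control of KMS28BM, while CD3D, CD3G, CD8A and CD2 lay at or below 0.4 FPKM in every library. Erythroid and stromal marker sums were at most 0.61 and 0.3 FPKM, and the monocyte sum lay between 0.36 and 2.13 FPKM. MYC was at 258 FPKM in the knockdown and 405 FPKM in the control of KMS18, and at 304 FPKM in the knockdown and 646 FPKM in the control of KMS28BM (edgeR log2 difference -0.91, SE 0.14, adjusted p = 0.0128). The part of MYC in the values of the nucleolar factors was not tested.

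The promoters of the nucleolar factors often hold CACGTG, the palindromic E-box to which MYC and other bHLH proteins are known to bind. RefSeq promoter windows (GRCh38.p14, from 250 bases before to 50 bases after an annotated start) were found for 32 of the 39 genes, and 15 of the 32 (46.88%) held CACGTG. Those without a window were NOP58, NOLC1, RRP12, BOP1, RRP1B, RRS1 and DDX18. Among all protein-coding genes tested, 1293 of 10216 (12.66%) held it. CACGTG reads the same on both strands, so 1 search covers both. The E-boxes of 8 of the 15 factors, picked by hand as examples, are shown with their flanks, on the strand of the gene, with the motif in capitals. They are not the 8 nearest to the start of transcription. GNL3, GAR1 and WDR43 fell in the knockdown by edgeR's test, and FBL, RRP9, NOP14, MRTO4 and DDX21 did not pass it.
GNL3, chr3:52686026-52686055, plus strand: ggcttcagttcaCACGTGgcgccagcggag
GAR1, chr4:109815781-109815810, plus strand: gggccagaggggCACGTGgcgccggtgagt
WDR43, chr2:28894658-28894687, plus strand: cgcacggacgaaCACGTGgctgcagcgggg
FBL, chr19:39846356-39846385, minus strand: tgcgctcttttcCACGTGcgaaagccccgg
RRP9, chr3:51941892-51941921, minus strand: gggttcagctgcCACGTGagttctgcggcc
NOP14, chr4:2963374-2963403, minus strand: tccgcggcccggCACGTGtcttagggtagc
MRTO4, chr1:19251807-19251836, plus strand: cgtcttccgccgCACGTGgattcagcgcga
DDX21, chr10:68956604-68956633, plus strand: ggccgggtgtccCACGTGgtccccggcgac

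The E-boxes of the nucleolar factors lay close to the start. Counted from the annotated start, the first base of the motif was at 6 in GNL3 and FBL, at 3 in WDR43 and GNL2, at -5 in RRP9 and at -31 in DDX21. NOP10 held a copy at -170 and another at -11. Within 40 bases of the start, a distance chosen after the positions were seen, CACGTG stood in all 15 factors that hold it (46.88% of 32), and in 427 of the 10216 genes tested (4.18%). The holders were GNL3, GAR1, WDR43, FBL, NOP10, UTP20, NOL6, NOP14, RRP9, BYSL, PES1, NOP2, GNL2, MRTO4 and DDX21. Among these 15, 3 were called lower in the knockdown (20.0%, median edgeR log2 difference -0.26), and among the 17 factors whose windows lack the motif 4 were called lower (23.5%, median -0.25). Over all protein-coding genes tested that have a window, 8.66% of the 1293 with the motif were called lower (median -0.03). The share was 5.47% of the 8923 without the motif (median 0.02). NOP56 and NCL, which are among the factors with the larger differences, have windows without it. These matches describe sequence and are not evidence of binding.

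**Figure D1:**
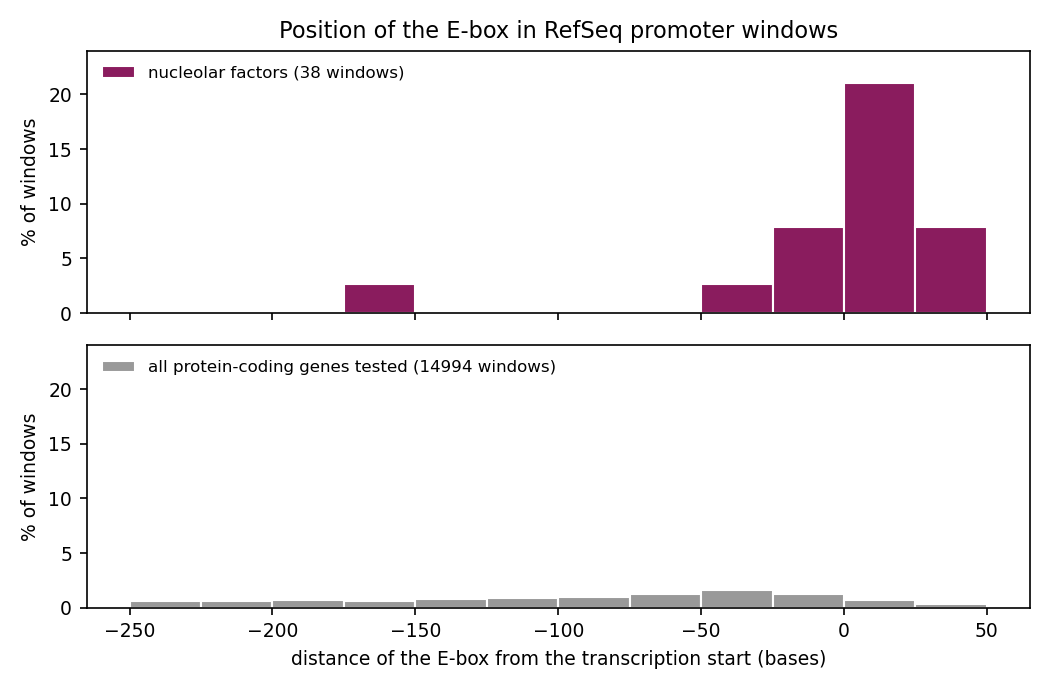
Position of CACGTG in RefSeq promoter windows, as distance in bases from the annotated start (x axis, bins of 25 bases) against the share of windows with a motif in the bin (y axis, %), for 38 windows of nucleolar factors (top) and 14994 windows of all protein-coding genes tested (bottom). The factors' motifs stand within 40 bases of the start except for 1 copy in NOP10 at -170.

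The first comparison set the knockdown against the control over both lines. Of the 39 nucleolar factors, 8 fell in the knockdown and none rose, by edgeR's quasi-likelihood test with cell line as a block and a Benjamini-Hochberg adjusted p under 0.05. That is 20.5% of the factors called lower, where 5.25% of all 14870 genes tested were called lower and 3.57% were called higher. All 39 factors averaged at least 5 FPKM, and of the genes at that level 7.91% were called lower. The factors called lower were GNL3, NOP56, RRP1B, NCL, GAR1, WDR43, PPAN and DKC1, with log2 differences between -0.70 and -0.40. These calls depend on the fit: without the cell line block, or with limma on log2(FPKM + 0.1), no factor and no gene of the table was called, and with no filter on low counts, or with limma on log2(FPKM + 1), only GNL3 and NOP56 were called among the factors. DESeq2 called 12 factors lower, with NOP58, NPM1, NOLC1, NOP14 and DDX21 added and GAR1 lost.

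The differences were small and mostly of 1 sign. The edgeR log2 difference was negative for 36 of 39 factors, and the difference of TMM-scaled counts was negative in both lines for 34 of 39 (87.2%), against 32.9% of all genes tested. The share negative in both lines was not computed for genes averaging at least 5 FPKM, the level of all 39 factors. The median over the factors was -0.26, with a range of -0.70 to 0.10, against a median of 0.02 over all genes tested. An unadjusted edgeR p under 0.05 was found for 23 of the 39, and for 3919 of all 14870 genes tested. The 31 factors that did not pass had adjusted p-values between 0.0531 and 0.986; a p above the threshold does not show that they were equal. Together the factors took 0.507% of the expected counts in the knockdown and 0.608% in the control of KMS18, and 0.624% in the knockdown and 0.759% in the control of KMS28BM. In the same libraries the 82 ribosomal protein genes took a larger share in each knockdown, 9.17% of counts in the knockdown and 7.4% in the control of KMS18, and 8.31% in the knockdown and 7.54% in the control of KMS28BM.

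**Figure D2:**
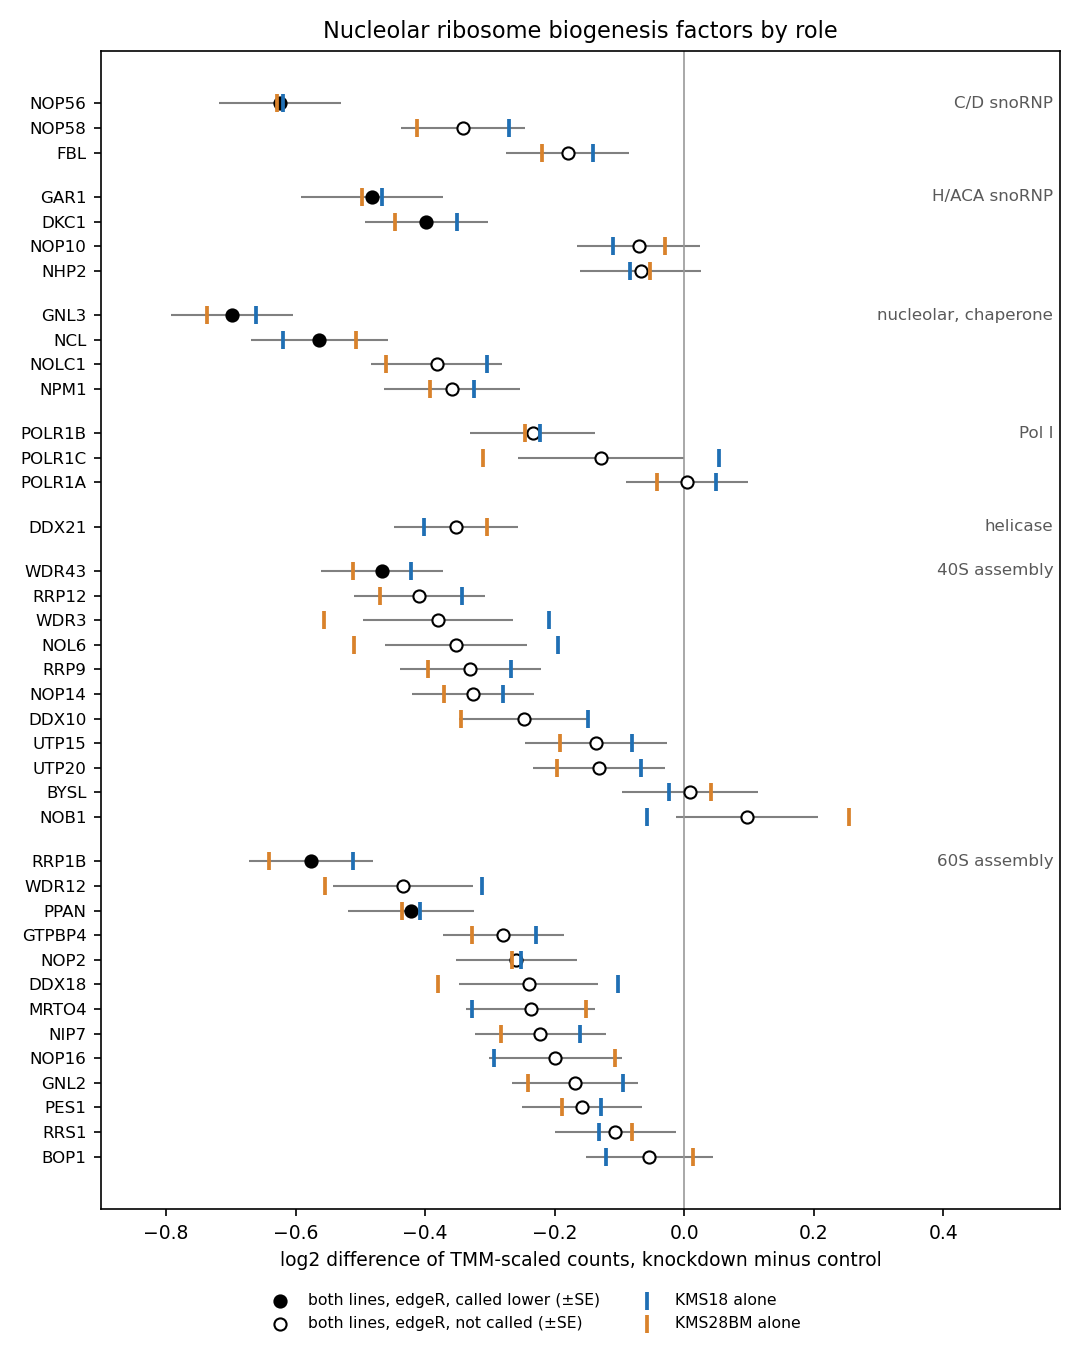
Log2 difference of TMM-scaled counts, knockdown minus control (x axis), for each of the 39 factors grouped by role (y axis). Circles are the edgeR estimate over both lines with its SE (filled, adjusted p under 0.05), and ticks are each line alone without replicates. The 8 filled circles lie between -0.70 and -0.40, and only NOB1, BYSL and POLR1A have estimates above 0.

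The box C/D proteins carry ribose methylation. NOP56, a core scaffold of the particle, was at 102 FPKM in the knockdown and 159 FPKM in the control of KMS18, and at 183 FPKM in the knockdown and 281 FPKM in the control of KMS28BM. Within each line the knockdown was lower, by about the same proportion (64.4% and 65.2% of the control), while across lines the values overlapped, KMS28BM being the higher line. NOP56 was called lower, with a log2 difference over both lines of -0.62 (SE 0.09, edgeR adjusted p = 0.0135). Its partner NOP58 was at 65.8 FPKM in the knockdown and 75.7 FPKM in the control of KMS18, and at 62.4 FPKM in the knockdown and 78.8 FPKM in the control of KMS28BM. Both knockdown values of NOP58 lay below both control values, and the difference did not pass (log2 difference -0.34, SE 0.10, edgeR adjusted p = 0.0748). FBL, the methyltransferase itself, was at 238 and 320 FPKM in the KMS18 and KMS28BM knockdowns and at 250 and 353 FPKM in their controls (log2 difference -0.18, SE 0.10, edgeR adjusted p = 0.286).

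Of the 4 box H/ACA proteins, DKC1 and GAR1 were called lower and NHP2 and NOP10 were not called. Of all genes averaging at least 5 FPKM 7.91% were called lower, and 4 genes are too few to read as a share. DKC1 (dyskerin), the pseudouridine synthase that is mutated in X-linked dyskeratosis congenita, was at 91.7 FPKM in the knockdown and 116 FPKM in the control of KMS18, and at 54.7 FPKM in the knockdown and 71.6 FPKM in the control of KMS28BM. GAR1, which binds dyskerin, was at 19.9 FPKM in the knockdown and 26.7 FPKM in the control of KMS18, and at 24.6 FPKM in the knockdown and 33.5 FPKM in the control of KMS28BM. For GAR1 both knockdown values were below both control values, while for DKC1 the KMS18 knockdown was above the KMS28BM control. The log2 difference was -0.40 for DKC1 (SE 0.10, edgeR adjusted p = 0.0490) and -0.48 for GAR1 (SE 0.11, edgeR adjusted p = 0.0433). Both calls sit near the threshold: of 7 refits, DKC1 was called by DESeq2 alone (adjusted p = 0.00477) and missed with median of ratios scaling (adjusted p = 0.0558), while GAR1 was called in 2 and missed with DESeq2 (adjusted p = 0.0839). NHP2 and NOP10, the other core proteins, stood at 96.9% to 103% of the control FPKM in both lines. Their log2 differences were -0.07 each (SE 0.09 for NHP2 and 0.10 for NOP10, edgeR adjusted p = 0.705 and 0.700), and whether they differ from DKC1 and GAR1 was not tested.

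Among the abundant nucleolar proteins, GNL3 had the lowest log2 difference of the 39 factors. GNL3 (nucleostemin), a GTP-binding protein known from stem cells and tumours, was at 81.1 FPKM in the knockdown and 124.5 FPKM in the control of KMS18, and at 44.7 FPKM in the knockdown and 72.3 FPKM in the control of KMS28BM. The knockdown was at 65.2% and 61.8% of the control in KMS18 and KMS28BM, and KMS18 was the higher line with either construct. Over both lines the GNL3 log2 difference came to -0.70 (SE 0.09, edgeR adjusted p = 0.0103). GNL3 overlaps GLT8D1 and PBRM1 in the annotation, and strand was not kept. GLT8D1 was at 32.8 and 29.3 FPKM in the KMS18 and KMS28BM knockdowns and 33.6 and 29.7 FPKM in their controls. PBRM1 was at 27.0 and 14.5 FPKM in those knockdowns and 28.5 and 13.1 FPKM in those controls, and the part of shared reads was not tested.

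NCL (nucleolin), a major RNA-binding protein of the nucleolus, was at 221 FPKM in the knockdown and 399 FPKM in the control of KMS18, and at 337 FPKM in the knockdown and 429 FPKM in the control of KMS28BM. Both knockdown values were below both control values. Its log2 difference on counts was -0.56 (SE 0.11, edgeR adjusted p = 0.0252). The size in KMS18 depends on the unit, because the gene length in the deposited tables was 3100 bases in the knockdown and 2541 bases in the control of that line. On counts per library total the NCL log2 ratio was -0.56 in KMS18 and -0.43 in KMS28BM, whereas on FPKM the knockdown was at 55.4% and 78.6% of the control in those lines. Lengths within 10% of each other in both lines were listed for 35 of the 39 factors, and the exceptions were NCL, NOLC1, WDR3 and WDR12.

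NPM1, a histone and ribosomal protein chaperone that is often mutated in acute myeloid leukaemia, had the highest FPKM of the factors in every library. It was at 578.5 FPKM in the knockdown and 693 FPKM in the control of KMS18, and at 809 FPKM in the knockdown and 1004 FPKM in the control of KMS28BM. The log2 difference was -0.36 (SE 0.11, edgeR adjusted p = 0.0813), lower in both lines without passing the test. NPM1 has 25 pseudogenes listed in the tables, whose FPKM summed to between 4.36 and 7.67 per library. NOLC1, a chaperone of snoRNPs, was at 85.5 and 157 FPKM in the KMS18 and KMS28BM knockdowns and at 113 and 216 FPKM in their controls (log2 difference -0.38, SE 0.10, edgeR adjusted p = 0.0629).

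**Figure D3:**
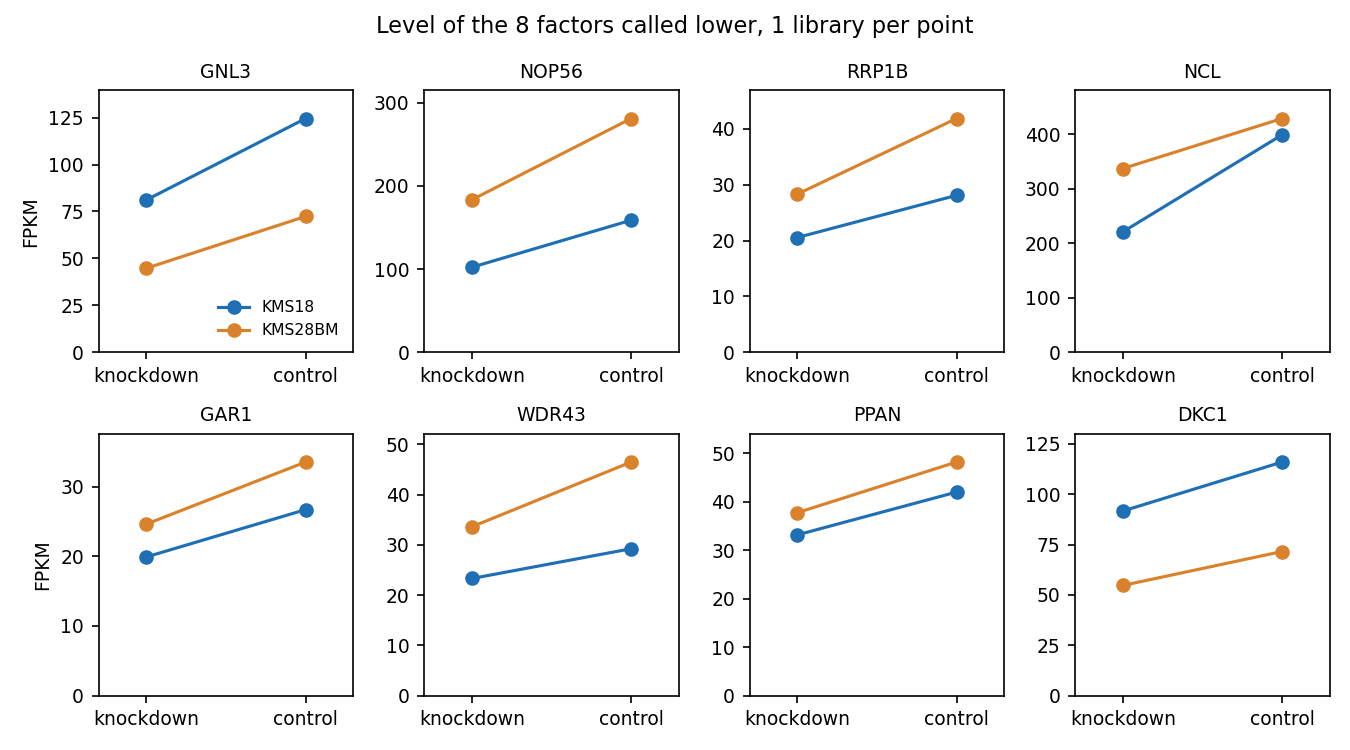
FPKM (y axis, from 0) of the 8 factors called lower, in the knockdown and the control library of each line, with 1 library per point and a line joining the libraries of 1 cell line. Every line slopes up towards the control, and KMS28BM is the higher line for NOP56, RRP1B, NCL, GAR1, WDR43 and PPAN.

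The RNA polymerase I subunits gave no call in either direction (0 of 3, median log2 difference -0.13). Of all genes averaging at least 5 FPKM 7.91% were called lower, and 3 genes are too few to set apart from that share. POLR1A, the largest subunit, was at 11.8 FPKM in the knockdown and 10.8 FPKM in the control of KMS18, and at 19.2 FPKM in the knockdown and 18.03 FPKM in the control of KMS28BM. Its log2 difference was 0.00 on counts, and its edgeR adjusted p of 0.986 was the highest of the 39 factors. POLR1B, its partner in the catalytic core, had a log2 value of -0.23 for this difference (SE 0.10, edgeR adjusted p = 0.181). POLR1C, which RNA polymerase III also uses, was at 26.5 FPKM in the knockdown and 24.1 FPKM in the control of KMS18, and at 21.3 FPKM in the knockdown and 26.9 FPKM in the control of KMS28BM. It is the only factor whose log2(FPKM + 1) differences have opposite signs and lie at least 0.2 apart, at 0.13 in KMS18 and -0.33 in KMS28BM. POLR1C overlaps XPO5 and YIPF3 in the annotation, and strand was not kept. XPO5 was at 31.8 and 37.0 FPKM in the KMS18 and KMS28BM knockdowns and 40.4 and 48.1 FPKM in their controls, and YIPF3 was at 55.9 and 63.8 FPKM in those knockdowns and 53.9 and 64.9 FPKM in those controls. The part of shared reads in the POLR1C values was not tested.

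DDX21, an RNA helicase that links RNA polymerase I transcription with processing, was at 33.2 FPKM in the knockdown and 42.1 FPKM in the control of KMS18. In KMS28BM it was at 74.0 FPKM in the knockdown and 86.7 FPKM in the control. It was lower in both lines and did not pass (log2 difference -0.35, SE 0.10, edgeR adjusted p = 0.0692).

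Of the 11 small subunit factors, 1 fell and none rose (median log2 difference -0.33). That is 9.09% called lower, near the 7.91% of all genes averaging at least 5 FPKM. WDR43, a scaffold of the first processing complex that forms on nascent ribosomal RNA, was at 23.3 FPKM in the knockdown and 29.2 FPKM in the control of KMS18, and at 33.6 FPKM in the knockdown and 46.5 FPKM in the control of KMS28BM. It was lower in both lines, to 79.8% and 72.3% of the control in KMS18 and KMS28BM (log2 difference -0.47, SE 0.09, edgeR adjusted p = 0.0308). RRP12, known from yeast for subunit export, missed the threshold by the smallest margin of the 39 factors (log2 difference -0.41, SE 0.10, edgeR adjusted p = 0.0531). WDR3, NOL6, RRP9 (a U3 snoRNP protein) and NOP14, which all belong to the early small subunit precursor, had log2 differences of -0.38, -0.35, -0.33 and -0.33. Their edgeR adjusted p-values were 0.0901, 0.0979, 0.110 and 0.0797.

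The other small subunit factors were nearer to the control. The helicase DDX10 had a log2 difference of -0.25, and UTP15 and UTP20, both of the early precursor complex, had -0.14 and -0.13. UTP20 was the lowest factor in every library, at 6.20 FPKM in the knockdown and 6.38 FPKM in the control of KMS18 and at 5.07 FPKM in the knockdown and 5.45 FPKM in the control of KMS28BM. BYSL and NOB1, which act late on the small subunit precursor, NOB1 as the nuclease of its last cut, had log2 differences of 0.01 and 0.10 (edgeR adjusted p = 0.970 and 0.632). NOB1 was at 64.6 FPKM in the knockdown and 52.5 FPKM in the control of KMS28BM, and at 74.1 FPKM in the knockdown and 73.4 FPKM in the control of KMS18. In KMS28BM the counting interval of its log2 count ratio ran from 0.27 to 0.40, and no replicate stands behind that value. On TMM-scaled counts its difference was -0.06 in KMS18 and 0.25 in KMS28BM.

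Of the 13 large subunit factors, 2 fell and none rose (15.4% lower, median log2 difference -0.24), against 7.91% lower among all genes averaging at least 5 FPKM. RRP1B, a nucleolar protein also studied as a metastasis modifier in breast cancer, was at 20.5 FPKM in the knockdown and 28.1 FPKM in the control of KMS18, and at 28.3 FPKM in the knockdown and 41.9 FPKM in the control of KMS28BM. The KMS28BM knockdown thus stood at the level of the KMS18 control, and each knockdown was below its own control (log2 difference -0.58, SE 0.10, edgeR adjusted p = 0.0177). PPAN, the relative of a yeast factor for maturation of the large subunit, was at 33.2 FPKM in the knockdown and 42.0 FPKM in the control of KMS18, and at 37.8 FPKM in the knockdown and 48.2 FPKM in the control of KMS28BM. Both knockdown values were below both control values (log2 difference -0.42, SE 0.10, edgeR adjusted p = 0.0441), and PPAN was called in 2 of 7 refits. PPAN shares exons with the readthrough gene PPAN-P2RY11, listed at 10.5 and 8.63 FPKM in the KMS18 and KMS28BM knockdowns and at 10.7 and 6.88 FPKM in their controls, so its counts are uncertain.

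PES1, BOP1 and WDR12 form the PeBoW complex of large subunit processing, and none of the 3 passed the test. WDR12 had a log2 difference of -0.43 on counts (SE 0.11, edgeR adjusted p = 0.0548), yet in KMS28BM its FPKM was 24.6 in the knockdown and 25.02 in the control, since the listed length was 2058 bases in the knockdown and 2800 bases in the control. PES1 and BOP1 had log2 differences of -0.16 and -0.05 (edgeR adjusted p = 0.337 and 0.785). The GTPases GTPBP4 and GNL2 had -0.28 and -0.17, the methyltransferase NOP2 had -0.26, the helicase DDX18 had -0.24, and MRTO4, NIP7, NOP16 and RRS1, large subunit factors known mainly from yeast, had -0.24, -0.22, -0.20 and -0.11. None of these passed the test, with edgeR adjusted p-values from 0.117 for GTPBP4 to 0.785 for BOP1. Besides GNL3, POLR1C and PPAN, the annotation has other genes overlapping NHP2, UTP15, WDR3, NOP14, RRP12, NOB1, PES1, BOP1, WDR12, NOP2, NOP16, GNL2, GTPBP4, MRTO4, NIP7 and RRS1, whose counts may hold reads of those neighbours.

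Within each line there is 1 library per construct and therefore no test. On log2(FPKM + 1), where changes of low genes come out too small, 3 of the 39 factors (7.69%) were lower by 0.5 or more in KMS18, against 5.93% of the genes that reached 1 FPKM there, and none was higher by 0.5 against 8.18% of genes. In KMS28BM 4 factors (10.3%) were lower by 0.5 or more, against 5.6% of genes, and none was higher against 9.03% of genes. The factors past that size were GNL3, NOP56 and NCL in KMS18 and GNL3, NOP56, RRP1B and WDR3 in KMS28BM. The 95% Poisson interval of the log2 count ratio, which covers counting error only, lay below 0 in both lines for 26 of 39 factors and above 0 in both lines for none. The share over all genes was not computed, so this count does not set the factors apart from other genes.

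The factors kept much of their order between the lines. The log2 differences of TMM-scaled counts in KMS18 and KMS28BM had a Pearson r of 0.74 and a Spearman rho of 0.74 over the 39 genes, which are not independent replicates and share the same 4 libraries. The median difference was -0.23 in KMS18 and -0.33 in KMS28BM, and 29 of 39 factors had the more negative value in KMS28BM. Over all genes tested the medians were 0.025 in KMS18 and 0.001 in KMS28BM. The share of all genes with the more negative value in KMS28BM was not computed. Among factors negative in both lines the gap was widest for WDR3 (-0.21 in KMS18 and -0.56 in KMS28BM), NOL6 (-0.19 and -0.51 in the same order) and DDX18 (-0.10 and -0.38). NOP16 and MRTO4 lay the other way, at -0.29 and -0.33 in KMS18 and -0.11 and -0.15 in KMS28BM. With 1 library per construct in each line, a difference between the lines in the response could not be tested.

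**Figure D4:**
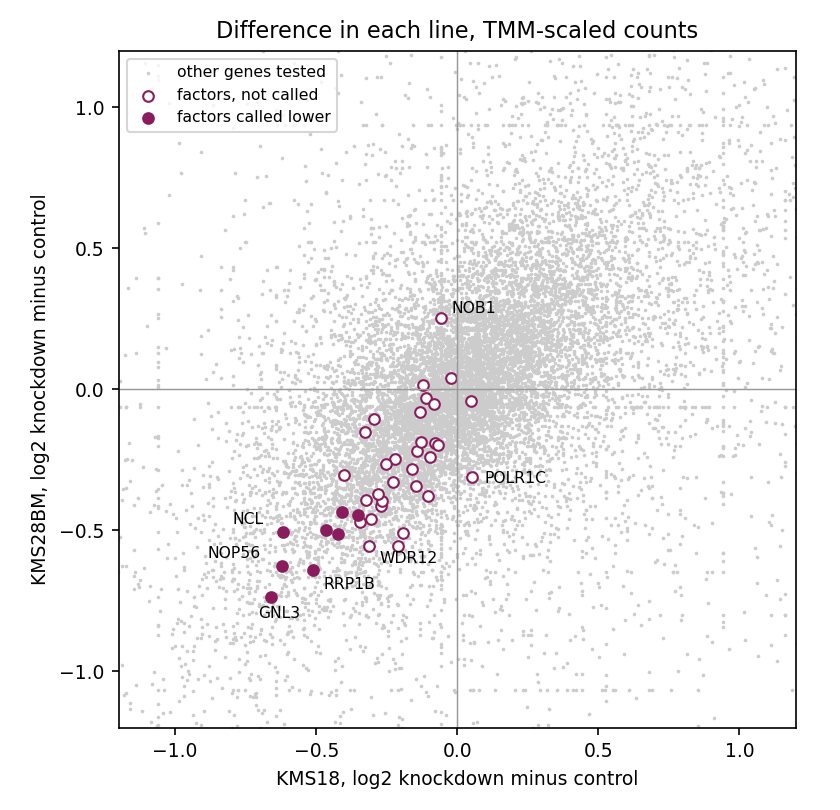
Log2 difference of TMM-scaled counts, knockdown minus control, in KMS18 (x axis) and KMS28BM (y axis), with 1 point per gene, the 39 factors in purple (filled, called lower) over the other genes tested in grey (points beyond 1.2 in size are not drawn). The factors lie mainly at the lower left, with 34 of 39 below 0 in both lines, and POLR1C and NOB1 stand off the main group.

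The same fit compared KMS28BM with KMS18 over both constructs. Here the knockdown and the control library of each line served as its replicates. No culture was sequenced again with the same construct, so these p-values cannot show how far either line varies by itself. The calls describe the sequenced libraries. KMS28BM was higher in 17 factors (43.6%, against 30.6% of all genes tested) and lower in 10 (25.6%, against 32.3% of genes), and 12 were not called. RRP12 stood highest in KMS28BM relative to KMS18, at 22.4 and 27.7 FPKM in the KMS28BM knockdown and control and at 6.71 and 8.21 FPKM in the KMS18 knockdown and control (log2 difference 1.90, SE 0.10, edgeR adjusted p = 1.1e-05). MRTO4 followed at 1.57 and DDX21 at 1.01. NOP2, RRP9, GNL3 and BOP1 were the lowest in KMS28BM relative to KMS18, with log2 differences of -0.92, -0.88, -0.87 and -0.84. The lines thus differ more in the level of several factors than the knockdown differs from the control.

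The other ribosome biogenesis genes were described by 4 lists of 129 tested genes in all that hold none of the 39. Of these 129, 13 fell and 1 rose (10.1% lower, median log2 difference -0.18), and 76.0% were negative in both lines. Over all genes tested 5.25% were called lower (7.91% of those averaging at least 5 FPKM). Negative in both lines were 32.9% of all genes tested, a share not computed at that level. Among 45 other small subunit factors 7 fell and none rose, including the kinase RIOK1 (-0.98, SE 0.12), the box C/D core protein SNU13 (-0.91, SE 0.12), UTP23 (-0.88, SE 0.12) and the ribosomal RNA acetyltransferase NAT10 (-0.73, SE 0.11). SNU13 was at 23.7 FPKM in the knockdown and 39.4 FPKM in the control of KMS18, and at 33.0 FPKM in the knockdown and 74.2 FPKM in the control of KMS28BM (edgeR adjusted p = 0.0106). Of NOP56, NOP58 and FBL, the 3 box C/D proteins among the 39 factors, 1 was called lower. With SNU13, which is named here because it was called, this becomes 2 of the 4 core proteins of the particle.

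Among 50 other large subunit factors 4 fell (8.0%), EBNA1BP2 (-0.73), the methyltransferase FTSJ3 (-0.71), the helicase DDX55 (-0.48) and RBM28 (-0.41). Called lower were 5.25% of all genes tested and 7.91% of those averaging at least 5 FPKM, so the share in this list is near that of the latter. NOP53 rose, at 204 FPKM in the knockdown and 144 FPKM in the control of KMS18 and at 271 FPKM in the knockdown and 192 FPKM in the control of KMS28BM (log2 difference 0.45, SE 0.10, edgeR adjusted p = 0.0347). Of 13 other RNA polymerase I genes 2 fell, the terminator TTF1 (-0.63, SE 0.11) and the subunit TWISTNB (-0.46, SE 0.10). Of 21 RNA exosome and snoRNP assembly genes none was called by edgeR, and the median was -0.12. An unadjusted edgeR p under 0.05 was found for 5 of the 21, no larger a share than the 3919 of all 14870 genes tested.

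**Figure D5:**
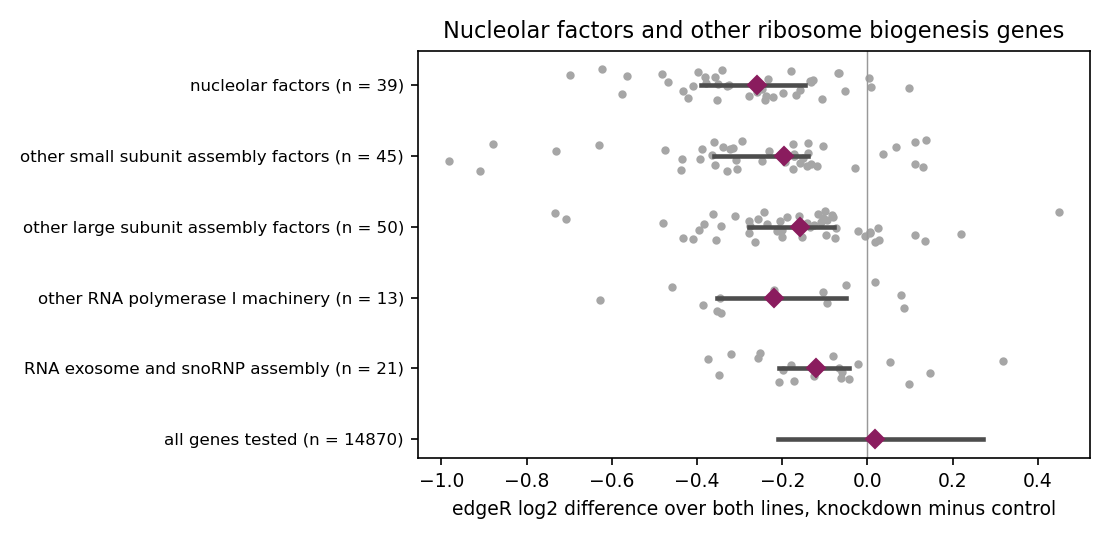
EdgeR log2 difference over both lines, knockdown minus control (x axis), of the 39 nucleolar factors, 4 lists of other ribosome biogenesis genes and all genes tested (y axis). Grey points are genes, diamonds are medians and bars run between the quartiles. The medians of the lists lie between -0.26 and -0.12, and that of all genes tested is 0.02.

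AGTCTAA and CAGTCTA were picked in earlier work on these data from the genes lowest in the knockdown, so the shares of all genes called lower are a description and no independent support for them. The factors were searched for these letters on the sense strand of GENCODE version 29 transcripts. Over the genes tested that have an annotated coding transcript, 16.2% of the 1853 with either sequence in a 3' UTR were called lower, against 4.11% of the 11203 without it. Of the 39 nucleolar factors only WDR12 and POLR1A held either sequence there, and none of the 8 factors called lower did. The sites are shown with the shared letters in capitals (GRCh38), together with the CAGTCTA in the coding sequence of GNL3. The stretch printed for GNL3 crosses an exon junction between the given ends. Also outside 3' UTRs, POLR1A held CAGTCTA in its coding sequence and WDR12 held CAGTCTAA in a 5' UTR, and these are not shown.
WDR12, chr2:202877038-202877067, minus strand: atctgttcacaCAGTCTAAaattcttttga
POLR1A, chr2:86022503-86022532, minus strand: aatcttcaagagAGTCTAAggtgcagcgga
GNL3, chr3:52694098-52694216, plus strand: cagcaggtgaaCAGTCTAcaaggtctttta

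The shorter AGTCTA stood in any transcript of 18 factors, of which 3 were called lower (16.7%, median log2 difference -0.24). Of the 21 factors without it, 5 were called lower (23.8%, median -0.28). Over the genes tested that were matched to GENCODE transcripts the calls leaned the other way, with 8.72% lower among 6396 that hold it and 2.8% among 7613 that do not. AGTCTA lies within both longer sequences picked from the genes lowest in these data, so this lean is a description and no independent reference. The factors called lower without AGTCTA in any transcript were DKC1, GAR1, NCL, RRP1B and PPAN.

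Several factors are also host genes, with snoRNA or scaRNA genes inside their introns or bounds. In GENCODE version 29 these were NOP56, NOP58, DKC1, GNL3, NCL, POLR1C, WDR43 and PPAN, for instance SNORD56 and SNORD57 in NOP56, SNORD20 and SNORD82 in NCL and SNORA36A and SNORA56 in DKC1. Of these 8 hosts 6 were called lower, and of the other 31 factors 2 were (6.45%), a split made after the calls were seen. Over all genes tested, 17 of 235 hosts (7.23%) were called lower. Among 28 ribosomal protein genes that host snoRNAs 1 was called lower with a median log2 difference of 0.16, and among 199 further hosts 10 were (5.03%).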

How the data were processed

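Per the labels' protocols, libraries were made from 100 ng total RNA with the TruSeq RNA version 2 kit, which does not keep strand. Before deposit the authors estimated, for each gene of a library, an expected count that need not be whole, per the file headers. The authors' FPKM values are those counts scaled to gene length and library size, and the deposited gene length differs between libraries, per the file headers. According to the submitters' processing notes, the tools were STAR, Bowtie2 and HISAT, and the builds hg19 and GRCh37, with no roles stated. The counting program was not given in the sources used here. Members and lists were chosen with earlier results of these data known.

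Expected counts were summed by symbol, rounded to whole numbers and tested with edgeR 4.0.16 in R 4.3.3 (TMM scaling, default filter with minimum count 10, quasi-likelihood test, Benjamini-Hochberg adjustment over 14870 genes, threshold 0.05). Identifiers without a symbol (3259) stayed in the table. Libraries pair by cell line per the labels, so cell line was a block. The residual degree of freedom was 1, and the prior 5.85. The script was tested on simulated data. Intervals are exact at 95% and scaled by library totals. Alternatives were DESeq2 1.42.0, limma 3.58.1 on log2(FPKM + 1) and log2(FPKM + 0.1), other scaling, other filters and no block. Named with values were all factors called, the highest adjusted p, factors with opposite signs in the lines by 0.2 or more, and up to 4 called genes per list and direction. The remaining factors are given in brief, and those given with libraries' values beyond that rule were chosen after their values were seen. Promoters come from RefSeq and transcripts from GENCODE, neither converted between builds.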

Additional observations from a re-analysis of the deposited data

Results flagged for a closer look

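POLR1C was 0.46 apart between the lines on log2(FPKM + 1), with a knockdown minus control difference of 0.13 in KMS18 and -0.33 in KMS28BM. The values of the lines had opposite signs, and the difference between the lines was not tested, since each line has 1 library per construct. The count log2 ratio had a Poisson interval of -0.004 to 0.23 in KMS18 and of -0.35 to -0.11 in KMS28BM.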

How the results depend on the processing

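The count of 8 factors called lower was 6 with median of ratios scaling, 12 with DESeq2 and 7 at 5 CPM in at least 2 libraries. It moved to 2 with no filter on low counts, 2 with limma on log2(FPKM + 1), 0 with limma on log2(FPKM + 0.1) and 0 with no replicate block, that is, without the pairing by cell line. The last pair of settings called no gene of the whole table, with 2977 and 215 genes and 10 and 0 factors at an unadjusted p under 0.05. By construction the count was 5 over the factors without AGTCTA and 2 over those without a snoRNA gene inside, a setting chosen after seeing the data. GNL3 and NOP56 were called in 5 of 7 refits, NCL, RRP1B and WDR43 in 3, GAR1 and PPAN in 2 and DKC1 in 1. No setting called a factor higher. The median of -0.26 moved to -0.17 and -0.18 with limma on log2(FPKM + 1) and log2(FPKM + 0.1), and was -0.33 to -0.23 when either line was left out, where no calls can be made. In KMS28BM 8 factors in place of 4 were lower by 0.5 or more on TMM-scaled counts. Refits turned the sign of 3 factors: POLR1A to -0.004 with no filter and with no replicate block, UTP15 to 0.005 and 0.006 and BOP1 to 0.002 and 0.002 with limma on log2(FPKM + 1) and log2(FPKM + 0.1). Leaving out 1 line also turned signs: with KMS28BM left out POLR1C was at 0.05, NOB1 at -0.06 and BYSL at -0.02, against -0.13, 0.10 and 0.01 over both lines, and with KMS18 left out POLR1A was at -0.04 and BOP1 at 0.01. None of these 5 was called. The cause of these changes was not tested. The factors had at least 820 expected counts in a library (GAR1), and what depth contributes to the errors was not tested.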
